A study of Mus musculus with 12 samples.

Results

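Fos, Fosb, Jun, Junb, Egr1, Atf3, Ier2, Nr4a1, Dusp1 and Zfp36 were taken as a panel of immediate early genes and followed through 12 RNA-seq libraries of mouse left ventricle. The 10 genes were chosen by symbol, by a rule that does not use their measured values but was written with earlier results of these data known, and each symbol matched 1 of the 26921 genes in the count table. Of the 11225 genes that passed the filter on low counts (more than 3 cpm, counts scaled by library size, in at least 6 libraries), 9 were members, and Fosb did not pass. WT mice (n = 6) carried floxed Gch1 alleles without Cre, and cmGch1 KO mice (n = 6) carried the same floxed alleles together with a heterozygous Cre transgene under the α-myosin heavy chain promoter, which is active in cardiomyocytes. The floxed alleles were thus common to both groups, all hearts were taken at 16 weeks, and no library of mice with Cre and without floxed alleles was analysed here, so that loss of Gch1 and presence of Cre cannot be told apart. The study counted a single animal as its experimental unit and used both sexes, and the labels do not give the sex of each heart.

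Immediate early genes are transcribed within minutes of a stimulus from factors already present in the cell, without new protein synthesis, and their mRNAs are short-lived. Stretch, adrenergic signalling, ischaemia and the handling of tissue are known inducers in the heart, with signals passing through MAP kinases to the serum response factor and its ternary complex partners and through CREB to cyclic AMP response elements. The products include subunits of the AP-1 transcription factor (FOS, FOSB, JUN, JUNB), the factors EGR1, ATF3 and NR4A1, the small nuclear protein IER2, and proteins that switch the response off again, namely the MAP kinase phosphatase DUSP1 and the mRNA-decay factor ZFP36. The methods state that hearts for RNA work were excised under inhaled isoflurane. The time from anaesthesia to freezing of each heart is not given in the sources used here.

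Promoter sequence is shown for the members whose levels carry the results, since the panel is known for shared control elements next to its transcription starts. RefSeq promoters on build GRCm38.p6 were found for 8 of the 10 members, the exceptions being Ier2 and Egr1. In each promoter the 250 bases before the transcription start were searched on both strands for the core TGACG of the cyclic AMP response element (CRE), the full CRE TGACGTCA (which contains the core on each strand), the CArG box bound by the serum response factor, the AP-1 site TGANTCA, the EGR1 site GCGTGGGCG and the NR4A site AAAGGTCA. The core was present in 6 of 8 members, Fos, Fosb, Junb, Atf3, Nr4a1 and Dusp1, against 17.8% of 32851 promoters in the table. Nr4a1 had 4 copies of the core, the nearest at 40 to 36 bases before the start, and Fos had 2, at 129 to 125 and at 66 to 62 bases. The full CRE occurred in 1 of 8, Dusp1, at 143 to 136 bases (1.55% of all promoters), and the CArG box in 1 of 8, Zfp36, as CCATAAAAGG at 58 to 49 bases (1.47% of all). AP-1, EGR1 and NR4A sites were found in 0 of 8 members (6.75%, 0.536% and 1.34% of all promoters), and the Jun window held none of the 6 motifs. Only exact letters within the 250 bases were searched, so variant sites and sites farther upstream were not counted, and an absence here does not mean that a gene lacks the element. The sequences run 5′ to 3′ along the gene's own strand and end at the base before the start, with matches in capitals. The windows were chr12:85473640-85473889 (plus strand) for Fos, chr8:84978749-84978998 (minus) for Junb, chr15:101266596-101266845 (plus) for Nr4a1, chr17:26508473-26508722 (minus) for Dusp1, chr7:28379229-28379478 (minus) for Zfp36 and chr4:95052223-95052472 (minus) for Jun.
Fos: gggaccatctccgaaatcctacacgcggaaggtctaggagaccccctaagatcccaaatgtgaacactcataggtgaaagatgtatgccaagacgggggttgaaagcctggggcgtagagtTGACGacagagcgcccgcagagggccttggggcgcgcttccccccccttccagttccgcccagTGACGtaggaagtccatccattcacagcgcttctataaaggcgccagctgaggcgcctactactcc
Junb: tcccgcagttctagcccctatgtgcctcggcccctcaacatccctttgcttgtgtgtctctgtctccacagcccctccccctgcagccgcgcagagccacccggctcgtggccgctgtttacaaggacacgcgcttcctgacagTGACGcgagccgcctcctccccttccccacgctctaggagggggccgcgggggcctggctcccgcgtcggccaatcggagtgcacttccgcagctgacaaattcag
Nr4a1: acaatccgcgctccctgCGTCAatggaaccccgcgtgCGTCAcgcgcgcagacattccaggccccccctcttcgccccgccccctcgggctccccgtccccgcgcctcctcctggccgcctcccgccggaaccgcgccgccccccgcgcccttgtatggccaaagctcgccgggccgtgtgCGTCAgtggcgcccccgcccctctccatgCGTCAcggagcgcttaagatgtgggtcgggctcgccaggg
Dusp1: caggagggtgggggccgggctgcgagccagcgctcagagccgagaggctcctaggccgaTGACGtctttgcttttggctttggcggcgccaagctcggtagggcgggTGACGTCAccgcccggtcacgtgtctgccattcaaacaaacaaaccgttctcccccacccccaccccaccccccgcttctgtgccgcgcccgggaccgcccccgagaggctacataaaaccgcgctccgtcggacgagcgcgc
Zfp36: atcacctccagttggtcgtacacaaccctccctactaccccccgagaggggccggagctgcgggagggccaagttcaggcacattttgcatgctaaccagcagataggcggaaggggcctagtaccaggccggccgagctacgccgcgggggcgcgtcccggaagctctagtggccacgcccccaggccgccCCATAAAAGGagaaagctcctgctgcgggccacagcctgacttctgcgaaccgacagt
Jun: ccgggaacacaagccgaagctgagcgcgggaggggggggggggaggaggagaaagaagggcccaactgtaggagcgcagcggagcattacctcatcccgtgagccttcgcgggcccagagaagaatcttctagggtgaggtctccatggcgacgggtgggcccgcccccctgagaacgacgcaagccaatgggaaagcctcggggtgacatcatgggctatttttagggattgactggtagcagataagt
A match of letters is a description of the window and does not show binding, and no binding data were analysed here.

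In the libraries as a whole, totals lay between 19921398 and 37917806 counts, and the share of mitochondrial genes between 14.9% and 22.9%. The deleted gene Gch1, whose product starts tetrahydrobiopterin synthesis, had at least 9.27 cpm in WT and at most 6.32 cpm in cmGch1 KO libraries (log2 fold change -0.96, standard error 0.11, FDR 6.88e-04 by edgeR). The 10 cardiomyocyte markers summed to between 66560 and 70184 cpm in WT and between 60642 and 65578 cpm in cmGch1 KO libraries, so that the genotypes did not overlap, although 0 of the 10 were called by edgeR or DESeq2 (0 at an unadjusted p under 0.05). The part of this difference in the levels of the members was not tested beyond the correlations given later. Xist, the RNA of the inactive X chromosome, stood at 86.7 cpm in cmGch1 KO replicate 2 and 99.1 cpm in replicate 3 and at no more than 0.234 cpm elsewhere. Both Xist-high libraries were cmGch1 KO, so the genotypes were unbalanced in Xist level. A difference tied to it cannot be fully told apart from one of genotype. The genotype differences are therefore also given without these 2 libraries. In whole tissue, a change in the number of cells of a type and a change in RNA per cell cannot be told apart.

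Scaled for transcript length, Jun and Dusp1 were the most abundant members, with a mean of 27.4 and 23.5 RPKM over 12 libraries, followed by Ier2 at 16.6 and Junb at 13.1 RPKM. Nr4a1 (9.62), Egr1 (8.54), Zfp36 (7.09), Atf3 (4.32) and Fos (3.74 RPKM) were lower. Fosb was lowest, at 0.156 RPKM, with no library over 3 cpm. The ranges of neighbours in this order overlapped widely, Egr1 for example running from 1.40 to 38.3 RPKM and Fos from 0.496 to 14.5 RPKM, except that the highest Fosb value, 0.427 RPKM, lay below the lowest Fos value. The strand setting of the counting is not given in the sources used here, so counts of Jun, Junb, Zfp36, Atf3 and Dusp1, which overlap an annotated gene on the opposite strand, may include reads of that gene if strand was not used.

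Of the AP-1 subunits of the FOS family, Fos had the widest range of all members as a fold. Fos (ENSMUSG00000021250, chromosome 12, 85473890 to 85477273) ran from 1.17 cpm in WT replicate 4 through a median of 4.40 to 34.1 cpm in WT replicate 1, and in cmGch1 KO from 1.89 through 4.67 to 19.99 cpm in replicate 1. The genotypes overlapped over nearly their whole range, and their medians were close. Fosb ran from 0.5001 through 0.839 to 2.67 cpm in WT and from 0.387 through 0.819 to 0.940 cpm in cmGch1 KO, with the same library, WT replicate 1, at the top.

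Of the JUN family, Junb (ENSMUSG00000052837, chromosome 8, 84974484 to 84978718) had 17.4, 20.8 and 86.2 cpm as lowest, median and highest WT level and 19.1, 25.6 and 49.9 cpm in cmGch1 KO. In each genotype the library numbered 1 stood alone at the top, and the KO median was above the WT median although the KO mean was below the WT mean. Jun itself (ENSMUSG00000052684, chromosome 4, 95049034 to 95052222) behaved differently. It ran from 78.1 through 93.6 to 123 cpm in WT, highest in replicate 6, and from 58.2 through 67.2 to 118 cpm in cmGch1 KO, highest in replicate 4. The library numbered 1 was the lowest of the cmGch1 KO libraries for Jun. WT replicate 1 had 78.9 cpm, close to the lowest WT level, and 0.917 times the median of all other libraries of both genotypes.

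Egr1 (ENSMUSG00000038418, chromosome 18, 34859823 to 34864984), a zinc finger factor, ran from 6.28 through 17.0 to 172 cpm in WT and from 13.6 through 17.1 to 82.3 cpm in cmGch1 KO. WT replicate 1 was 10.7 times the median of the other 11 libraries and cmGch1 KO replicate 1 was 5.13 times it. Ier2 (ENSMUSG00000053560, chromosome 8, 84661331 to 84662852) had 13.2, 19.6 and 77.1 cpm in WT and 16.8, 18.5 and 44.97 cpm in cmGch1 KO, again with both libraries numbered 1 at the top. Nr4a1 (ENSMUSG00000023034, chromosome 15, 101254269 to 101274795), an orphan nuclear receptor, spread more evenly, over 13.8, 40.8 and 66.9 cpm in WT and 9.07, 21.96 and 56.7 cpm in cmGch1 KO. Its 2 lowest libraries were the Xist-high cmGch1 KO replicates 2 and 3. Atf3 (ENSMUSG00000026628, chromosome 1, 191170296 to 191218039), a stress-induced bZIP repressor, had 4.23, 10.7 and 13.8 cpm in WT and 5.16, 7.74 and 13.3 cpm in cmGch1 KO, and neither library numbered 1 was high.

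The feedback genes had a narrower range than most members, 2.47-fold for Dusp1 and 3.02-fold for Zfp36. That of Jun was narrower still, at 2.11-fold, and that of Atf3 was 3.27-fold. Dusp1 (ENSMUSG00000024190, chromosome 17, 26505590 to 26562128) ran from 64.6 through 85.9 to 119 cpm in WT and from 48.3 through 63.9 to 88.2 cpm in cmGch1 KO. The annotated Dusp1 locus is longer than the RefSeq transcript whose promoter is printed above, since it extends upstream through other annotated genes. The promoter windows searched for Nr4a1, Atf3 and Zfp36 likewise lie inside their annotated loci and not before the outermost start. Zfp36 (ENSMUSG00000044786, chromosome 7, 28376784 to 28380253) had 17.7, 24.3 and 45.5 cpm in WT and 15.0, 20.2 and 28.9 cpm in cmGch1 KO. For both, WT replicates 1 and 6 were the 2 highest libraries and the 2 Xist-high libraries the 2 lowest.

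**Figure D1:**
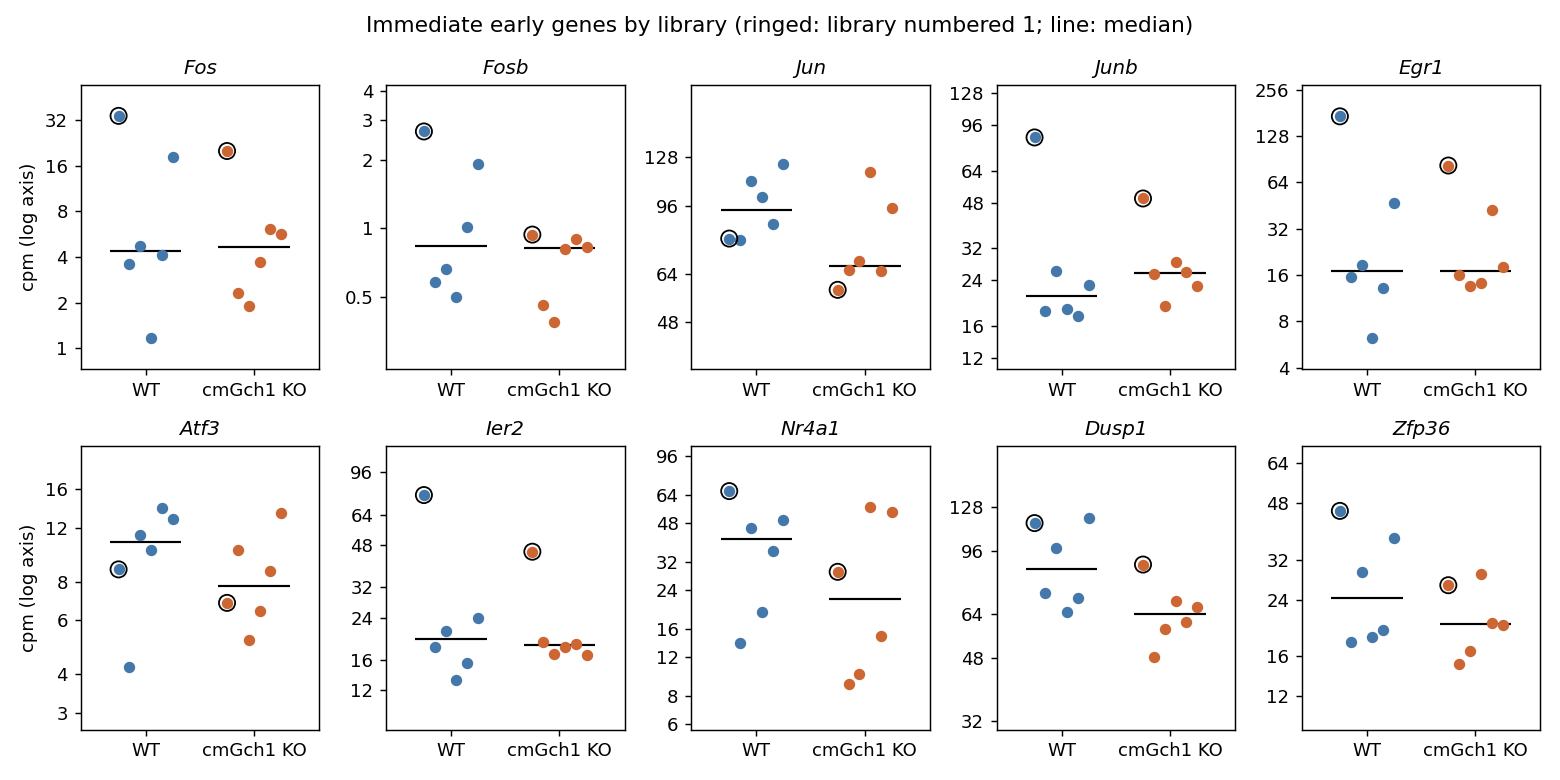
Level of each member in cpm on a log axis for the 6 WT (blue) and 6 cmGch1 KO (orange) libraries, with the library numbered 1 of each genotype ringed and a line at the median. The ringed libraries sit at the top for Fos, Junb, Egr1 and Ier2, for which WT replicate 1 had 34.1, 86.2, 172 and 77.1 cpm, but not for Jun or Atf3.

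No tested member passed the comparison of genotypes. At an FDR under 0.05, 0 of 9 members were called in edgeR's quasi-likelihood fit, adjusted by Benjamini and Hochberg's method over all 11225 genes, where 1.12% of genes were called, 0.677% higher and 0.445% lower in cmGch1 KO. DESeq2 called 0 of the 8 members to which it gave an adjusted p, and gave none to Junb. At an unadjusted p under 0.05 there was 1 of 9, Dusp1, which was lower, against 11.5% of all tested genes in either direction and 4.51% lower. The groups overlapped for each of the 10 members, where 1.87% of tested genes had groups that did not overlap.

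All 9 fitted differences were below 0, with a median log2 fold change of -0.39 beside -0.0095 for all tested genes, of which 53.3% were below 0. Because the members covary, as shown later, these 9 differences are not independent of each other. Mean Dusp1 was 90.4 ± 23.9 cpm (SD, n = 6) for WT hearts against 65.3 ± 13.5 cpm (SD, n = 6) for cmGch1 KO hearts. Its log2 fold change was -0.47 (95% interval -0.84 to -0.099, unadjusted p = 0.017, FDR 0.267 by edgeR). On the cpm values the exact permutation test over 924 splits gave p = 0.054, two-sided. Fos had the largest fitted difference, -0.73, and the least certain one, with a 95% interval from -2.30 to 0.85 and an FDR of 0.81 by edgeR. Egr1 was similar, at -0.55 (-2.11 to 1.01, FDR 0.869 by edgeR). Jun was at -0.30 (-0.67 to 0.074), Zfp36 at -0.39 (-0.91 to 0.14) and Atf3 at -0.27 (-0.84 to 0.31), with edgeR FDR values of 0.574, 0.616 and 0.809. For Nr4a1 the value was -0.40 (-1.44 to 0.64), for Ier2 -0.33 (-1.21 to 0.55) and for Junb -0.15 (-0.97 to 0.68), with edgeR FDR values of 0.852, 0.855 and 0.945. Each interval except that of Dusp1 held 0, and those of Fos, Egr1, Ier2 and Nr4a1 also held 2-fold falls. That of Egr1 held a 2-fold rise as well. For Fosb, fitted without a filter on low counts, the log2 fold change was -0.75 with an FDR of 0.582.

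A single library set the sign for 4 members. Without WT replicate 1, Egr1 moved to 0.64, Junb to 0.47, Ier2 to 0.29 and Fos to 0.089, and the median of the members to -0.17. Without cmGch1 KO replicate 1 they moved the other way, Fos to -1.45 and Egr1 to -1.12. Without the 2 Xist-high libraries the median of the members was -0.20, and 0 of 9 members were called. Fos was then at -0.32, Egr1 at -0.21, Zfp36 at -0.22, Ier2 at -0.20, Jun at -0.19, Atf3 at -0.20 and Dusp1 at -0.34, with Nr4a1 at 0.016 and Junb at 0.0065.

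**Figure D2:**
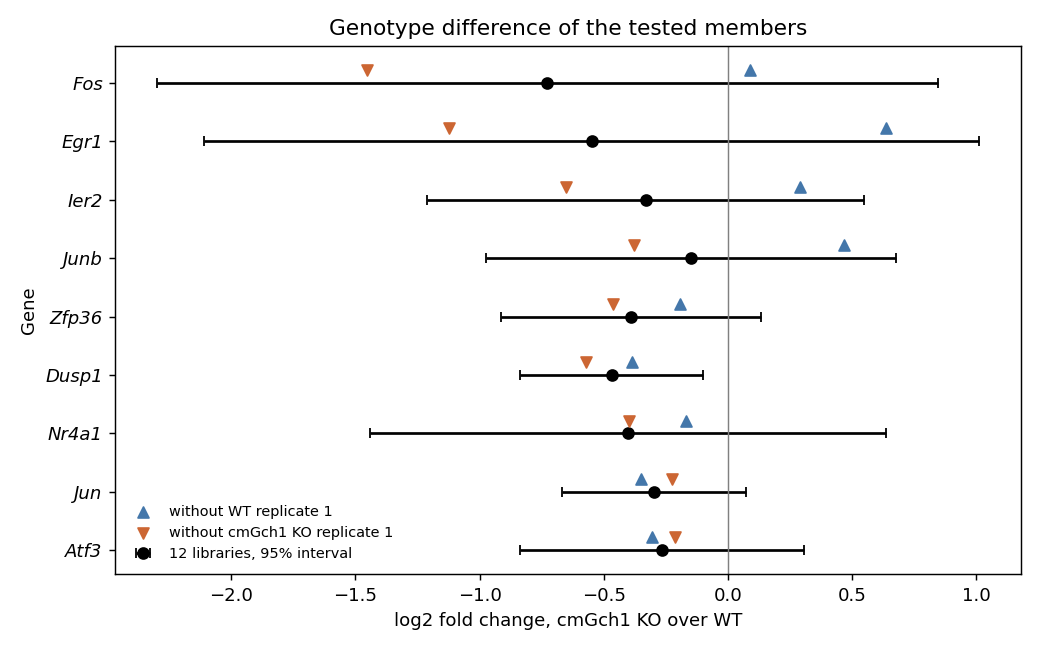
Log2 fold change of cmGch1 KO over WT for the 9 tested members, with all 12 libraries (black, 95% interval) and without the library numbered 1 of either genotype (triangles). Leaving out WT replicate 1 takes Egr1 from -0.55 to 0.64, whereas Dusp1, Jun, Atf3 and Zfp36 stay below 0 in both settings.

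The members stood out among cardiac genes by their spread between animals rather than by genotype. The biological coefficient of variation, the spread between libraries of one genotype beyond counting error, was 0.835 for Fos, 0.822 for Egr1 and 0.570 for Nr4a1, which placed them at percentiles 99.9, 99.9 and 99.8 of all tested genes. It was 0.483 for Ier2 (99.6), 0.455 for Junb (99.5), 0.318 for Atf3 (98.3), 0.295 for Zfp36 (97.8), 0.214 for Jun (90.7) and 0.212 for Dusp1 (90.4). The median was 0.455 over the 9 members and 0.135 over all tested genes. Counting error was a small part of this, since the library with the fewest counts of Fos had 42 and every other tested member had at least 120 counts in each library. The highest of 12 libraries exceeded the lowest 29.2-fold for Fos, 27.4-fold for Egr1, 7.38-fold for Nr4a1, 5.83-fold for Ier2 and 4.96-fold for Junb, but 2.47-fold for Dusp1 and 2.11-fold for Jun.

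Few libraries accounted for the extremes. WT replicate 1 was the highest of 12 for 7 of the 10 members, WT replicate 6 for 2 and WT replicate 5 for 1. Averaged over the 9 tested members, WT replicate 1 lay 1.31 log2 units above the mean of the libraries, WT replicate 6 lay 0.66 and cmGch1 KO replicate 1 lay 0.58 above it. At the other end, cmGch1 KO replicate 3 was at -0.72 and among the 3 lowest libraries for 7 members, WT replicate 4 was at -0.66 with 5 such members, and cmGch1 KO replicate 2 at -0.56 with 6. High and low libraries thus occurred in both genotypes.

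**Figure D3:**
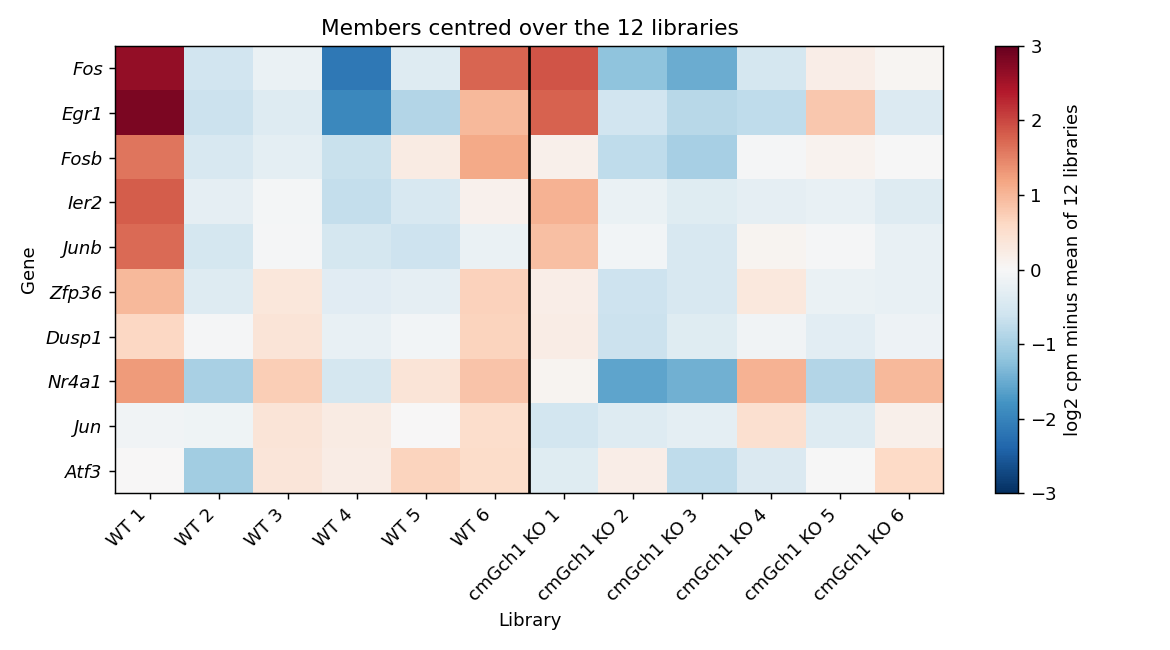
Log2 cpm of each member minus its mean over 12 libraries, with a line between the 6 WT and the 6 cmGch1 KO libraries. WT replicate 1 is high from Fos to Nr4a1, and the bottom rows, Jun and Atf3, do not follow it.

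Over all 12 libraries, Fos, Egr1, Ier2, Junb, Dusp1 and Zfp36 were correlated with one another in most of their pairs. Nr4a1 was correlated with Dusp1 and Zfp36, and Jun and Atf3 with no other member. Levels in log2 cpm were correlated over 12 libraries for the 36 pairs of the 9 tested members, and 15 pairs had a Benjamini-Hochberg adjusted p under 0.05 over the 36 (permutation test, two-sided), with Jun and Atf3 in 0 of them. After the genotype means were removed it was 17 pairs, and by rank correlation 8. Without WT replicate 1 it was 6 pairs, without both libraries numbered 1 it was 7, and without the 2 Xist-high libraries 11. The median Pearson r was 0.564 over the pairs and 0.584 within genotype. Over all pairs of tested genes the median r was -0.0032, and 11.8% of them reached 0.564, so values of this size were not rare among genes in these libraries.

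Fos and Egr1 moved together, with r = 0.945 and rho = 0.895 (permutation p = 1e-05 and 2.1e-04, adjusted 3.6e-04 and 0.0038), where 1e-05 is the smallest p the permutations can give. The value was 0.953 within genotype and stayed at 0.878 without the 2 libraries farthest from the median of Fos, the libraries numbered 1. Egr1 and Ier2 had r = 0.923 and rho = 0.895 (permutation p = 2e-05 and 1.7e-04, adjusted 3.6e-04 and 0.0038), and 0.815 without those 2 libraries. Junb and Ier2 had the highest r, 0.956, with rho = 0.818 (permutation p = 2.4e-04 and 0.0019, adjusted 0.0017 and 0.0175), but it fell to 0.579 without the libraries numbered 1, so that much of it rested on them. For Fos and Junb it fell from 0.776 to 0.353, and that relation rested on the same 2 libraries.

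The feedback genes formed the other close pair. Dusp1 and Zfp36 had r = 0.906 and rho = 0.797 (permutation p = 8e-05 and 0.003, adjusted 7.2e-04 and 0.0178), and 0.798 without the 2 libraries farthest from the median of Dusp1. Zfp36 was the best connected member, in 6 of its 8 pairs, and its r with Fos was 0.814 and with Nr4a1 0.804. Nr4a1 passed with Zfp36 and Dusp1 (r = 0.732) but not with Egr1 (r = 0.385, adjusted permutation p = 0.303).

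Over all 12 libraries Jun stood apart from its AP-1 partners. Its r was -0.0595 with Fos, -0.253 with Junb and -0.298 with Egr1, with adjusted permutation p values of 0.894, 0.552 and 0.464. The highest value of Jun with a member was that with Nr4a1, 0.624, which had an adjusted permutation p of 0.07. For Atf3 the highest was also with Nr4a1, 0.446 (adjusted permutation p = 0.264). The values of Jun depended on the libraries numbered 1. Without both of them its r was 0.863 with Nr4a1, 0.829 with Zfp36 and 0.769 with Dusp1. With Fos, Junb and Egr1 it was then 0.376, 0.202 and -0.012. Fosb, at its low level, followed Fos (r = 0.889, rho = 0.881) and Zfp36 (r = 0.858, rho = 0.769), with permutation p values of 1e-04 and 3.4e-04 and 3.3e-04 and 0.0044. Adjusted over the 9 pairs of Fosb these were 9e-04 and 0.0031 for Fos and 0.0015 and 0.0197 for Zfp36.

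**Figure D4:**
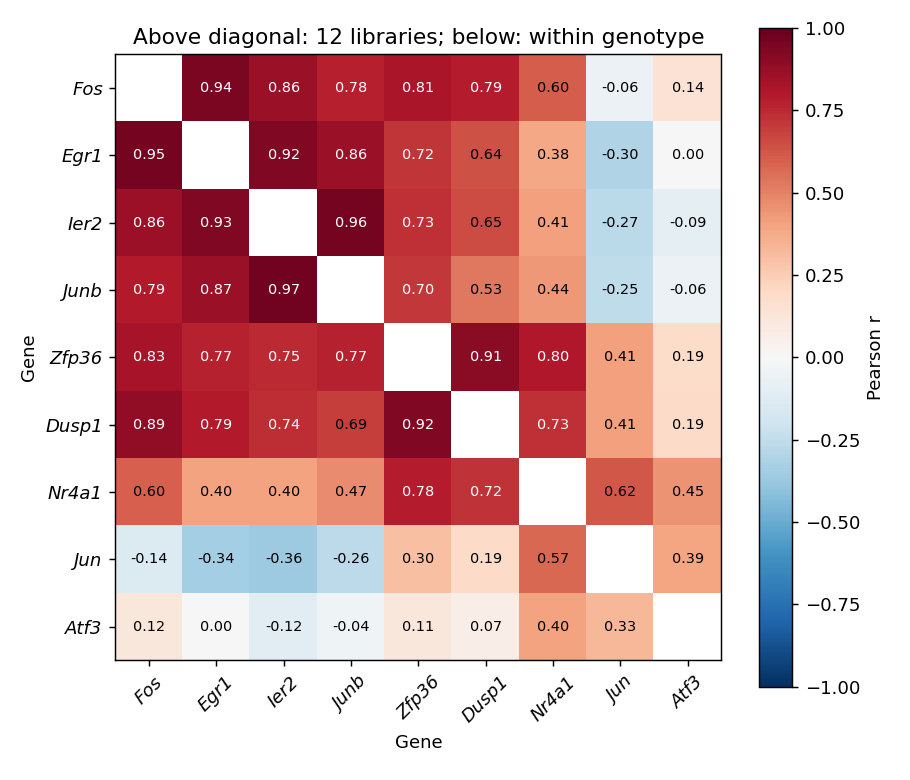
Pearson r between the log2 cpm of the 9 tested members over 12 libraries (above the diagonal) and on deviations from the genotype means (below). The block from Fos to Dusp1 is red in both triangles, with Fos and Egr1 at 0.945 and 0.953, and Jun and Atf3 are pale or blue against most of it.

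**Figure D5:**
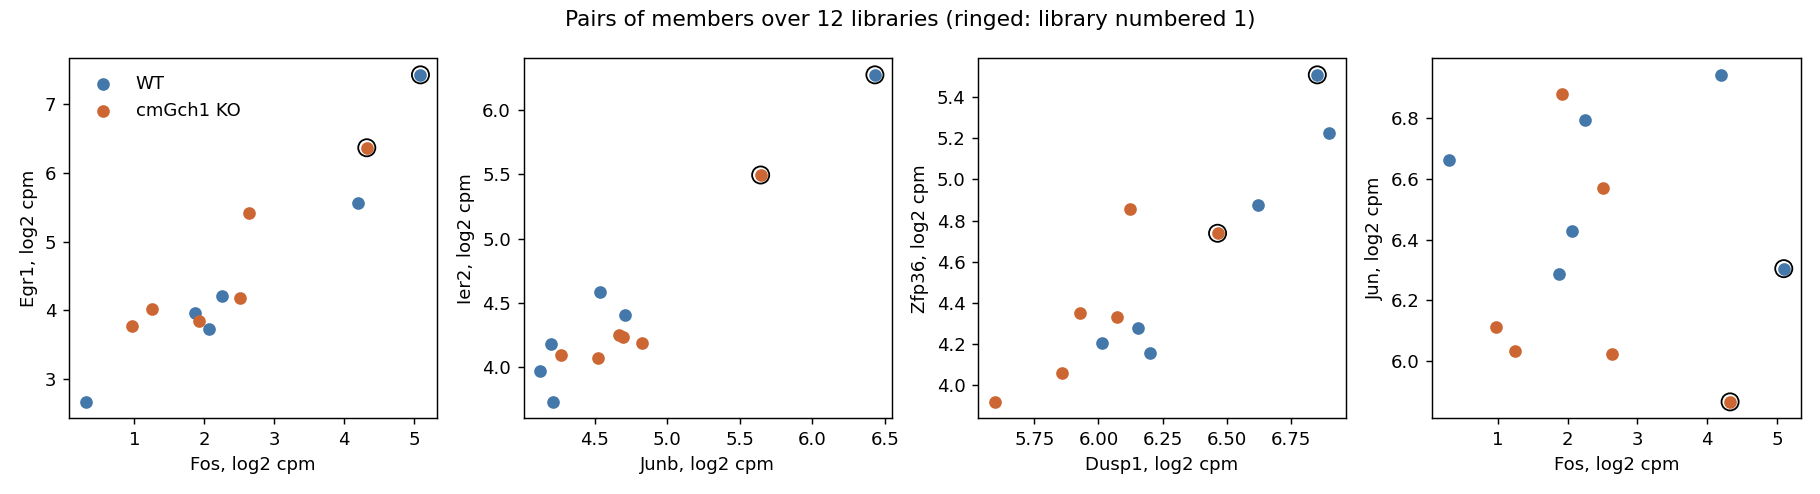
Log2 cpm of one member against another in the 6 WT (blue) and 6 cmGch1 KO (orange) libraries, with the libraries numbered 1 ringed. Fos and Egr1 follow a line through all libraries, the ringed libraries stretch Junb and Ier2, and Fos and Jun show no line (r = -0.0595).

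Depth, mitochondrial share, and the mean levels of heat shock genes, clock genes and 4 cell type marker lists were set against the members over 12 libraries, 72 relations in all. After Benjamini-Hochberg adjustment 0 of 72 had a p under 0.05. The strongest was Jun with heat shock genes, with r = 0.801 and rho = 0.776 (permutation p = 0.0029 and 0.0042, adjusted 0.21 and 0.179), and the next was Jun with clock genes, with r = 0.746 and rho = 0.629 (permutation p = 0.0074 and 0.0325, adjusted 0.265 and 0.319). Without the 2 libraries farthest from the median of the measure these were 0.681 and 0.838. Heat shock genes were lowest in cmGch1 KO replicate 1, by 0.81 log2 units below their mean, the library that was also lowest for Jun. WT replicate 1, the library highest for most members, was the lowest of 12 for clock genes, 0.42 log2 units below their mean, and the lowest WT library for mitochondrial share (18.3%), and it had 32505480 counts. Of 9 tested macrophage markers, 8 had a fitted log2 fold change above 0 and 0 were called by edgeR or DESeq2. At an unadjusted edgeR p under 0.05 there were 7, next to 11.5% of all tested genes. Macrophage markers summed to between 265 and 408 cpm in WT and between 344 and 479 cpm in cmGch1 KO libraries. Fibroblast markers had 10 of 10 above 0, with 0 called by edgeR and 3 at an unadjusted edgeR p under 0.05. DESeq2 called 1 of them, Col3a1, as higher, where 218 of 11225 genes were higher by DESeq2. Fibroblast markers summed to between 1698 and 2360 cpm in WT and between 1964 and 2558 cpm in cmGch1 KO. Over 12 libraries Atf3 had an r of -0.651 and a rho of -0.762 with fibroblast markers (permutation p = 0.023 and 0.005, adjusted 0.299 and 0.179), and Nr4a1 an r of -0.633 and a rho of -0.608 (permutation p = 0.028 and 0.039, adjusted 0.299 and 0.319). Jun had an r of -0.630 and a rho of -0.671 with macrophage markers (permutation p = 0.03 and 0.0196, adjusted 0.299 and 0.283). Leaving out the 2 libraries farthest from the median of the measure gave -0.848, -0.567 and -0.625. After the genotype means were removed r was -0.665, -0.601 and -0.480 (permutation p = 0.03, 0.0495 and 0.119, adjusted 0.635, 0.635 and 0.78). Dusp1 had an r of -0.582 and a rho of -0.692 with macrophage markers (permutation p = 0.047 and 0.0148, adjusted 0.308 and 0.267). Within genotype that r was -0.249 (permutation p = 0.465, adjusted 0.974). Of the tested members, Dusp1 had the highest r with cardiomyocyte markers, 0.603, with a rho of 0.692 (permutation p = 0.037 and 0.0148, adjusted 0.299 and 0.267). After the genotype means were removed its r was 0.243 (permutation p = 0.476, adjusted 0.974).

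Genes outside the panel were ranked by the correlation of their level with the mean profile of the 9 tested members over 12 libraries, a description that carries no p. Among the closest of all tested genes were Spry1 (r = 0.940) and Dusp6 (0.910), both feedback inhibitors of receptor tyrosine kinase and ERK signalling. Others among the closest were Il17d (0.847), Lrrc49 (0.846), the antiproliferative early gene Btg2 (0.839), Ces1d (0.836), Siae (0.831), the matricellular early gene Ccn1 (0.829) and the small GTPase gene Rhob (0.822). Spry1 ran from 21.1 to 33.01 cpm and Dusp6 from 16.7 to 24.1 cpm, while Btg2 ran from 29.0 to 75.0 cpm and Ccn1 from 46.6 to 171 cpm. All 4 were highest in WT replicate 1. Most opposed were Foxp4 (-0.801), Ldlrad4 (-0.787), Rrp1b (-0.781), Bbs1 (-0.778) and Farp1 (-0.777).

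Within genotype, the tested gene closest to a member was another member for Fos and Egr1 (each other), Junb and Ier2 (each other) and Dusp1 (Zfp36). For Zfp36 it was Spry1 (r = 0.935), for Nr4a1 it was Sgca (0.921), which encodes a sarcoglycan, and for Atf3 it was Tmc6 (0.867). Jun was closest to Tob2 (0.972), an antiproliferative gene, which ran from 34.6 to 134 cpm. Among the listed early response and clock genes, those closest to Jun over 12 libraries, named after their values were seen, were Per1 (0.959), Sgk1 (0.898), Tsc22d3 (0.897), Sik1 (0.889) and Klf9 (0.887). Their r with Fos, in the same order, was -0.139, 0.216, 0.240, 0.251 and -0.194.

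Of 76 other early response genes on 3 lists (AP-1 and MAF bZIP genes, other transcription factors, signalling genes), 61 were tested, and at an FDR under 0.05 by edgeR 2 were higher and 0 lower in cmGch1 KO, next to 0.677% and 0.445% of all genes. Their median log2 fold change was -0.088, with 23 above and 38 below 0. The 2 that rose were Myc, a growth-regulating factor, and Gadd45b, a stress-response gene. Mean Myc was 2.62 ± 0.606 cpm (SD, n = 6) for WT against 4.90 ± 1.37 cpm (SD, n = 6) for cmGch1 KO, with a log2 fold change of 0.90 (standard error 0.19, FDR 0.040 by edgeR), and its groups did not overlap. Myc lay near the limit of the filter, with 2.08 to 3.47 cpm in WT and 3.56 to 7.25 cpm in cmGch1 KO. It passed the filter only through its cmGch1 KO libraries, so its call is not independent of that selection. Mean Gadd45b was 5.85 ± 0.632 cpm (SD, n = 6) against 9.45 ± 2.28 cpm (SD, n = 6), with a log2 fold change of 0.70 (standard error 0.16, FDR 0.047 by edgeR), and its groups overlapped. Both kept their direction in 23 other settings, but when single libraries were left out in turn (12 fits) Myc passed in 4 and Gadd45b in 1, with FDR values up to 0.105 and 0.122 by edgeR. Without the 2 Xist-high libraries the edgeR FDR was 0.056 for Myc and 0.004 for Gadd45b. Neither followed the mean profile of the members, with r of 0.0285 and 0.223. The members Jun and Atf3 also had a low r with that profile, 0.135 and 0.260, so likeness to it is not likeness to each member. Over the 61 genes the median r with that profile was 0.105, beside 0.015 over the tested genes that are not members.

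The early response genes closest to the members' mean profile, after Dusp6, Btg2, Ccn1 and Rhob, were Nfkbia (0.742), Plk3 (0.696), Csrnp1 (0.682) and Errfi1 (0.665). Among the most opposed were Ier5 (-0.463), Bhlhe40 (-0.444) and Dusp5 (-0.397). Egr2, a paralogue of Egr1 that did not pass the filter, had 15.7 cpm in WT replicate 1 and an r of 0.914 with Egr1, and is named here after its value was seen.

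Of the 24 upstream kinases and factors, all tested, 1 fell and 0 rose at an FDR under 0.05 by edgeR, next to 0.445% and 0.677% of all tested genes. Their median log2 fold change was -0.057, and 3 had an unadjusted edgeR p under 0.05, next to 11.5% of all tested genes. The gene that fell was Rps6ka2, which encodes an RSK kinase downstream of ERK, at 86.9 ± 5.06 cpm (SD, n = 6) for WT against 61.4 ± 5.58 cpm (SD, n = 6) for cmGch1 KO, with a log2 fold change of -0.50 (standard error 0.071, FDR 0.0028 by edgeR) and no overlap of the groups. It passed in all 23 other settings. DESeq2, by which 155 of 11225 genes were lower, also called Mapk14, which encodes a p38 kinase, as lower (FDR 0.0135). Of 18 partners and targets of the EGR1, AP-1, NR4A and ZFP36 proteins, 13 were tested, 0 were called by edgeR or DESeq2 (1 at an unadjusted p under 0.05) and the median log2 fold change was 0.14. The 10 heat shock genes and the 11 tested clock genes also had 0 called by edgeR or DESeq2 (0 and 1 at an unadjusted p under 0.05), with medians of -0.13 and -0.17.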

How the data were processed

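The authors made stranded paired-end libraries with dUTP and, per the labels and methods, used HISAT2, SAMtools, Picard and featureCounts with build GRCm38, and deposited raw counts per Ensembl gene. They also deposited normalized values on a log2 scale, used here only as an alternative. The annotation and strand setting of the counting are not given in the sources used here. Symbols, positions and exon lengths came from GENCODE M21 (26582 of 26921 identifiers matched). Promoters came from RefSeq.

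Genes with more than 3 cpm in at least 6 libraries were kept (11225), scaled by TMM and tested by edgeR 4.0.16 (R 4.3.3) quasi-likelihood fits on genotype, with Benjamini-Hochberg adjustment (FDR 0.05). On simulated counts for these 11225 genes and this comparison, 98% of genes changed 2-fold and 77% of those changed 1.5-fold were recovered. The changed genes were drawn at random from all tested genes, whose median biological coefficient of variation was 0.135. For the tested members it was 0.455, so these shares do not give the recovery for the members, which was not simulated. Values in cpm are TMM-scaled, RPKM is cpm per kilobase of exon, and correlations use log2 cpm with a prior count of 2 and 100000 permutations. Single genes were tested by an exact permutation test. No pair of replicates agreed within sampling noise. Alternatives were DESeq2 1.42.0, other scalings and filters, a replicate block, sex-linked expression as covariate, limma 3.58.1 on the deposited values, and leaving out libraries.

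The members and lists were chosen with earlier results of these data known. Named genes are the members, Gch1, list genes with an FDR under 0.05, the 8 highest and 4 lowest early response genes and the 10 highest and 5 lowest of all genes by r with the members' mean profile, each member's closest gene within genotype, and the sex-linked genes. Of the genes that this rule names, 2 are not reported here. Others are marked as named after their values were seen. Pericyte and smooth muscle markers had 1 of 10 tested genes called as higher by edgeR, Acta2 (log2 fold change 0.66, FDR 0.0067), next to 0.677% of all tested genes. The cardiomyocyte, endothelial, red blood cell, nerve and glia, and atrial lists had 0 called by edgeR or DESeq2, with 0, 1, 0, 0 and 0 genes at an unadjusted p under 0.05, and no neutrophil, lymphocyte or adipocyte marker passed the filter.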

Additional observations from a re-analysis of the deposited data

Results flagged for a closer look

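Among the 30 groups of 6 libraries examined (the 10 members, Gch1 and the 4 listed genes called by edgeR, in each genotype), 6 had a library that stood apart from its group by Dixon's criterion (the gap to the nearest library as a share of the group's range), where chance flags about 1 in 20 if values are normally distributed. The criterion was applied to cpm and not to log2 cpm, on which a high library stands less far apart. In WT it was replicate 1 for Egr1 (172 cpm, nearest library 47.3 cpm), for Junb (86.2 cpm, nearest 26.1 cpm) and for Ier2 (77.1 cpm, nearest 23.96 cpm). In cmGch1 KO it was replicate 1 for Junb (49.9 cpm, nearest 28.3 cpm), for Ier2 (44.97 cpm, nearest 19.0 cpm) and for Fos (19.99 cpm, nearest 6.16 cpm). The 6 flags thus fell on 2 libraries and 4 covarying genes, and are not 6 independent events.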

How the results depend on the processing

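Across 23 other settings, 0 members passed an FDR of 0.05, except that Junb was given no adjusted p by DESeq2, and Dusp1, Jun, Zfp36 and Atf3 kept their direction in all 23. The lowest FDR of any member was 0.095, that of Dusp1 with the replicate block. Direction reversed in a few settings for the other members, none of them past the threshold on either side. Junb was at 0.063 with the replicate block, 0.047 with sex-linked expression as a covariate, 0.0065 without the 2 Xist-high libraries, 0.036 on the deposited normalized values and 0.24 without both libraries numbered 1, and Nr4a1 at 0.0055 with the covariate and 0.016 without the Xist-high libraries. Egr1 was at 0.066 without both libraries numbered 1, an alternative added after the data were seen. Over single libraries left out, Junb ran from -0.38 to 0.47, Egr1 from -1.12 to 0.64, Ier2 from -0.65 to 0.29 and Fos from -1.45 to 0.089, the upper end without WT replicate 1 and the lower without cmGch1 KO replicate 1. Member pairs with correlated levels numbered 8 by rank, 7 without both libraries numbered 1 and 6 to 16 over single libraries left out, with 6 without WT replicate 1. Relations of members with library measures numbered 0 to 2 over single libraries left out, with 2 without cmGch1 KO replicate 2. Of all genes, scaling by library size alone gave 116 higher and 36 lower, so that 23.7% of calls were lower against 39.7% with TMM, and moved the median of all genes from -0.0095 to 0.065. DESeq2 gave 218 higher and 155 lower, the replicate block 112 and 76, the sex-linked covariate 40 and 24, and leaving out the Xist-high libraries 20 and 18. Single libraries left out gave 45 to 116 higher and 30 to 97 lower. The replicate numbers were not taken as pairs, since the correlation of same-numbered deviations ran from -0.13 to 0.68 and 3 of 6 WT libraries correlated best with their own number. The value of 0.68 was that of the libraries numbered 1, each the best match of the other across genotypes. Replicates 5 and 6 were at 0.40 and 0.51. The permutation tests took the libraries as exchangeable and made no allowance for this likeness. The cause of the shifts between settings was not tested.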
